A study of Homo sapiens with 18 samples.

Results

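Genes for 10 surface proteins of plasma cells, several of them targets of myeloma drugs, were followed across 6 groups of cultured plasma cell tumour lines. The genes were listed by name, with earlier results of these data known: TNFRSF17 (BCMA), TNFRSF13B (TACI), CD38, SDC1 (CD138), SLAMF7, CD48, GPRC5D, FCRL5, CD27 and CD28. Of these 10, 9 had a microarray probe set of their own among the 22465 genes measured. TNFRSF13B shared its probe set with TBC1D27, so its values are given apart and enter no count. The lines were KMS12-BM, labelled multiple myeloma, and JJN3, labelled plasma cell leukemia, and the labels name no engineered allele in either. Cells of each line were kept for 24 h with amiloride, with TG003 or with DMSO as the solvent control, and each of the 6 groups has 3 arrays. KMS12-BM received amiloride at 0.1 mM and JJN3 at 0.4 mM, whereas TG003 was given at 0.4 mM to both. Both were grown in RPMI medium with fetal bovine serum, of which the share differed between the lines, so line and serum cannot be told apart.

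BCMA and TACI are receptors for the cytokines APRIL and BAFF, which sustain plasma cells, and gamma-secretase cuts BCMA from the cell surface. CD38 is an ectoenzyme that consumes NAD and the target of daratumumab, syndecan-1 (CD138) is a heparan sulfate proteoglycan by which plasma cells are recognised, and SLAMF7 is the target of elotuzumab. GPRC5D, an orphan receptor, and FCRL5, an Fc receptor-like protein, are targets of bispecific antibodies, while CD27, CD28 and CD48 take part in contacts with other immune cells. Amiloride, a diuretic, acts on the epithelial sodium channel. TG003 is an inhibitor of CLK kinases, which phosphorylate splicing factors.

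All values are log2 intensities, and a log2 difference of 1 is a doubling of intensity. The probe sets of different genes differ in how brightly they report, so levels were compared between groups and never between genes. The 95th percentile of 92 ERCC control probe sets, 6.87, served as a background reference, although some ERCC probe sets may carry signal of their own. Their median was 3.98, and whether ERCC RNA was added to the samples is not given. A group mean above the reference was found for 6 of the 9 genes, and the other 3, SLAMF7, FCRL5 and GPRC5D, stayed below it in every group. Where only the dimmer of a pair of groups lay below the reference, the fold is given as a bound taken from the reference, and where both did, no fold is given. Such bounds depend on the reference chosen. The 95th percentile was lower for 23 array background probe sets, 5.80, and for 23 tissue-restricted genes, 4.99. The labels fitted the lines by their cyclin and MAF levels: under DMSO, CCND1 averaged 14.87 in KMS12-BM and 6.08 in JJN3, CCND2 averaged 5.98 and 15.22, and MAF averaged 4.84 and 11.16. One array, the third of KMS12-BM amiloride, carries the other line's name in a single field of its labels, and its CCND1, CCND2 and MAF values were 14.84, 5.85 and 4.40. Of 15 plasma cell marker genes, 13 to 14 lay above the reference in each group. No T or NK cell marker of 11 and no stromal marker of 9 did so in any group, and of 10 myeloid markers CD68 alone did so, in KMS12-BM DMSO, with mean levels of the myeloid list between 4.61 and 4.77 over the groups. Of 11 B cell markers, PAX5 with CIITA or BACH2 lay above it in KMS12-BM and CIITA in JJN3. Since these are bulk RNA values, fewer cells with a transcript and less transcript per cell cannot be told apart.

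TG003 lowered surface antigen genes in both lines, and TNFRSF17 was the gene called lower in both. In KMS12-BM, 3 of 9 genes fell (TNFRSF17, CD38 and CD27) and none rose, where 14.8% of all genes were called and 6.52% were called lower. In JJN3, 4 of 9 fell (TNFRSF17, CD28, GPRC5D and SDC1) and none rose, where 9.38% of all genes were called and 5.64% called lower. Of these, GPRC5D had both means below the reference, and the SDC1 call depended on single arrays and on the model. Amiloride lowered 1 of 9 genes in KMS12-BM, CD27, where 30.6% of all genes were called and 13.6% called lower. In JJN3 amiloride gave 0 of 9 calls in limma against 14.8% of all genes, and 1 of the 9, SLAMF7, had an unadjusted p under 0.05. A call is an adjusted p under 0.05 from limma, with the adjustment over all 22465 genes. Only 8535 of these had a group mean above the reference, against 6 of the 9 surface genes. The shares of all genes therefore include many dim genes and are not shares among expressed genes. Under DMSO, the surface genes above the reference were TNFRSF17, CD38 and CD27 in KMS12-BM, and TNFRSF17, SDC1, CD28 and CD48 in JJN3. The counts out of 9 thus include genes that began below the reference in that line and had less room for a measurable fall. Of all calls under TG003 in KMS12-BM, 56% were higher, against 39.4% after further quantile normalization and 53% after each array was centred on its median. In JJN3, 39.9% were higher, against 36.1% and 23.3% after the same 2 steps. Under amiloride 55.5% were higher in KMS12-BM (47.7% and 57.1% after these steps) and 58.6% in JJN3 (51.1% and 64.3%). The contrasts of both drugs within a line use the same DMSO arrays and are not independent of each other.

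**Figure D1:**
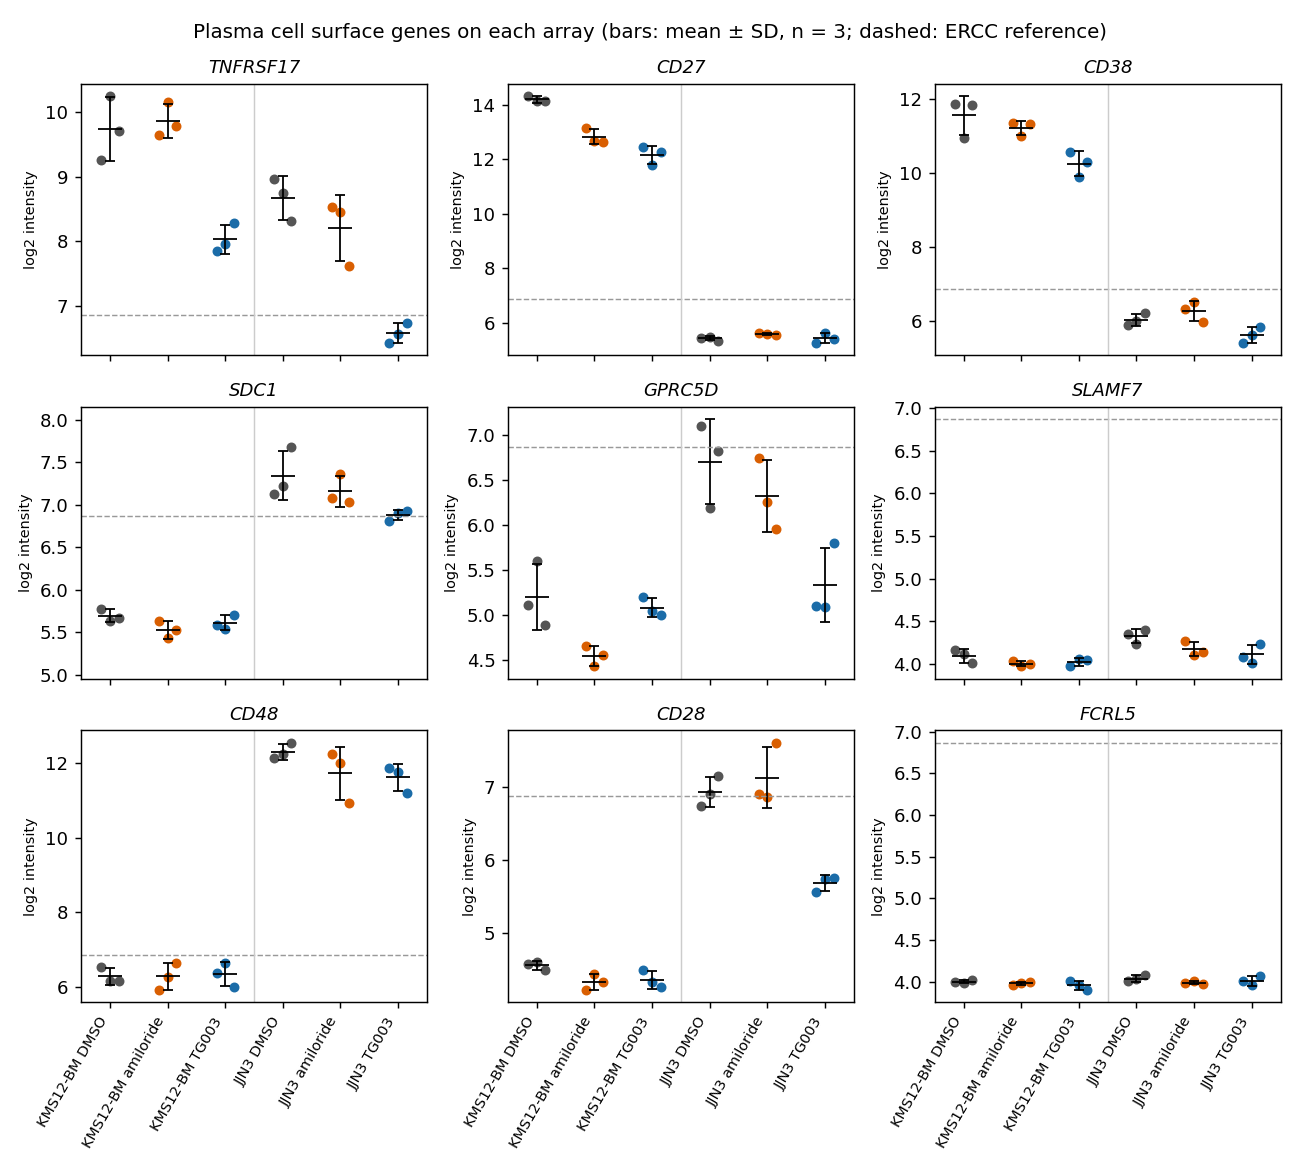
Log2 intensity of 9 plasma cell surface genes (vertical axes, each panel with its own range) on every array of the 6 groups (horizontal axis), with bars for the mean ± SD of 3 arrays and a dashed line at the ERCC reference of 6.87. TNFRSF17 is lowest under TG003 in each line, CD27 and CD38 are high in KMS12-BM, and CD48 is high in JJN3.

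BCMA transcript was measured above the reference in 5 of 6 groups. In KMS12-BM, TNFRSF17 read 9.25, 10.25 and 9.70 under DMSO, 9.65, 10.15 and 9.78 under amiloride and 7.85, 7.96 and 8.28 under TG003. The amiloride arrays overlapped the DMSO arrays, and all 3 TG003 arrays lay below both. In order of level the groups ran from KMS12-BM amiloride through KMS12-BM DMSO, JJN3 DMSO, JJN3 amiloride and KMS12-BM TG003 to JJN3 TG003, and neighbours in this order overlapped except at the step between the lines in DMSO and the step to JJN3 TG003. The TG003 change in KMS12-BM was −1.70 ± 0.26 on the log2 scale (SE, n = 3 per group), a 3.25-fold drop (adjusted p = 0.000324), while the amiloride difference of 0.13 ± 0.26 was not called (adjusted p = 0.798, 95% interval −0.43 to 0.68). In JJN3 the values were 8.97, 8.75 and 8.31 under DMSO, 8.54, 8.45 and 7.62 under amiloride and 6.44, 6.58 and 6.74 under TG003. The TG003 arrays were again the lowest, this time below the ERCC reference, and amiloride and DMSO overlapped. TNFRSF17 fell by 2.09 ± 0.26 on the log2 scale under TG003 in JJN3 (adjusted p = 9.16e-05), which is at least 3.50-fold against the reference. The amiloride difference there was −0.47 ± 0.26 (adjusted p = 0.314). The responses of the lines to TG003 differed by −0.39 ± 0.37, JJN3 minus KMS12-BM, with an interval from −1.17 to 0.39 (adjusted p = 0.686). Between the drugs, TNFRSF17 was higher under amiloride than under TG003 by 1.83 ± 0.26 in KMS12-BM (adjusted p = 3.37e-05) and by 1.62 ± 0.26 in JJN3 (adjusted p = 0.000395).

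The probe set annotated to TNFRSF13B and TBC1D27 stayed below the reference throughout. Its group means were 4.75, 4.75 and 4.78 in KMS12-BM under DMSO, amiloride and TG003, and 5.29, 5.21 and 5.13 in JJN3 in the same order. JJN3 DMSO exceeded KMS12-BM DMSO by 0.54 ± 0.07 (adjusted p = 9.83e-06 over all 70523 probe sets), and neither drug gave a call in either line.

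CD38 transcript was high in KMS12-BM and below the ERCC reference in JJN3. In KMS12-BM it read 11.86, 10.94 and 11.84 under DMSO, 11.33, 10.98 and 11.31 under amiloride and 10.55, 9.89 and 10.30 under TG003. Its 3 TG003 arrays lay below every other KMS12-BM array, and the second DMSO array lay below all 3 amiloride arrays. CD38 fell by 1.30 ± 0.23 under TG003, or 2.46-fold (adjusted p = 0.000916), and the amiloride difference was −0.34 ± 0.23 (adjusted p = 0.333). Without the second DMSO array the amiloride difference became −0.64, with an adjusted p of 0.0184. In JJN3 the values were 5.89 to 6.21 under DMSO, 6.33, 6.52 and 5.98 under amiloride and 5.41, 5.62 and 5.85 under TG003, all below the reference and none of them called against DMSO. The JJN3 means of 6.03 under DMSO and 6.28 under amiloride lay above the 95th percentile of the array background probe sets, 5.80. The TG003 response of CD38 differed between the lines by 0.89 ± 0.32 (adjusted p = 0.147), a difference that was called without the second KMS12-BM DMSO array (1.19, adjusted p = 0.0173).

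The promoter of CD38 is shown as the first of a set of 4 genes that fell under TG003, with its sequence from RefSeq on GRCh38.p14 (chr4:15778078-15778377, plus strand, 5′ to 3′), 250 bases before to 50 after the start of the gene. Entries existed for 8 of the 10 genes, but not for TNFRSF17 and SLAMF7. Capitals mark matches, on either strand, to the TATA box letters TATAAA, to the CCAAT box, to the octamer bound by OCT factors, ATTTGCAT, to the half-site bound by MAF factors, TGCTGAC, or to a pair of GAAA motifs 2 bases apart. These occur in 11.5%, 34.6%, 1.77%, 4.19% and 3.57% of all 35116 promoters of this length. SDC1, also called lower under TG003 in JJN3, had 2 entries, which held none of the motifs and are not shown. CD38 held one, a CCAAT on the opposite strand, whose first base lies 89 bases before the start.
CD38: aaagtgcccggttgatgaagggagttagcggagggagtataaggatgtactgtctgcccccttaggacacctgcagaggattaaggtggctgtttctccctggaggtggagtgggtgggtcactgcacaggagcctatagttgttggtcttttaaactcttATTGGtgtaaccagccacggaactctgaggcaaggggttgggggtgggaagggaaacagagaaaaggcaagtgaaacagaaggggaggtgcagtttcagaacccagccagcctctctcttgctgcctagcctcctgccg

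Syndecan-1 transcript was seen above the reference in JJN3 alone. SDC1 read 7.13, 7.23 and 7.68 there under DMSO, 7.08, 7.36 and 7.03 under amiloride and 6.81, 6.90 and 6.92 under TG003. The TG003 arrays lay below all DMSO arrays, and the amiloride arrays overlapped DMSO. The TG003 mean, 6.88, was barely above the reference of 6.87, and the first TG003 array lay below it. SDC1 fell by 0.47 ± 0.12 under TG003, or 1.38-fold (adjusted p = 0.0204). This call depended on single arrays and on the model: the adjusted p was 0.0857 without the third JJN3 DMSO array, 0.0735 without the first JJN3 TG003 array and 0.0936 when only those groups were fitted. In KMS12-BM all 9 arrays read between 5.43 and 5.78, and neither drug gave a call.

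SLAMF7 and CD48 belong to the SLAM family of adhesion and signalling receptors, whose genes lie in one cluster on chromosome 1. CD48, a lipid-anchored ligand of CD2 and CD244, read 12.13, 12.24 and 12.54 in JJN3 under DMSO, 12.24, 12.01 and 10.93 under amiloride and 11.88, 11.76 and 11.21 under TG003. The third amiloride array stood below the other JJN3 arrays, and the TG003 arrays lay below those of DMSO. Neither drug gave a call, with differences of −0.58 ± 0.29 under amiloride (adjusted p = 0.247) and −0.69 ± 0.29 under TG003 (adjusted p = 0.182). In KMS12-BM all 9 arrays lay between 5.94 and 6.66, below the reference but above the 95th percentile of the array background probe sets, 5.80. SLAMF7 stayed between 3.97 and 4.40 on all 18 arrays, also below it. Its TG003 difference in JJN3 was −0.21 ± 0.07 (adjusted p = 0.065), and this was called after further quantile normalization (adjusted p = 0.00988), after centring each array on its median (adjusted p = 0.0157) and without the third JJN3 TG003 array (adjusted p = 0.0229).

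GPRC5D was below the ERCC reference in every group mean, but its JJN3 DMSO mean of 6.70 lay above the 95th percentile of 23 array background probe sets, 5.80. In JJN3 it read 7.10, 6.19 and 6.82 under DMSO, 6.74, 6.26 and 5.95 under amiloride and 5.10, 5.09 and 5.80 under TG003. All 3 TG003 arrays lay below every DMSO and amiloride array. GPRC5D fell by 1.37 ± 0.25 on the log2 scale under TG003 (adjusted p = 0.00208), and the amiloride difference was −0.39 ± 0.25 (adjusted p = 0.422). KMS12-BM values were 5.11, 5.60 and 4.89 under DMSO, 4.65, 4.43 and 4.55 under amiloride and 5.19, 5.04 and 4.99 under TG003. There the amiloride arrays lay lowest, with a difference of −0.66 ± 0.25 (adjusted p = 0.0592), which was called when only those groups were fitted (adjusted p = 0.0255) or without the third KMS12-BM DMSO array (adjusted p = 0.0375). FCRL5 read 3.90 to 4.08 over all 18 arrays and was called in none of the 4 drug contrasts. The antisense gene GPRC5D-AS1 gave no call under either drug in either line, with group means between 4.25 and 4.33.
The GPRC5D promoter is chr12:12952121-12952420, minus strand, 5′ to 3′. It held matches on the opposite strand to TATAAA at 244 and 90 bases before the start, to the MAF half-site at 192 bases before and to CCAAT at 4 bases after.
GPRC5D: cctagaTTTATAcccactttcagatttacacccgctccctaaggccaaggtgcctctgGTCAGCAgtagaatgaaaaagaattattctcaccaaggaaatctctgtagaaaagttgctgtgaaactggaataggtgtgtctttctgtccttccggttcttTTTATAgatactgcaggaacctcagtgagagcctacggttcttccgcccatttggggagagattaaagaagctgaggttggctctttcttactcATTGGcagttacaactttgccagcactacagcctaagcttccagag

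CD27, the receptor of CD70, was high in KMS12-BM and fell under both drugs there. It read 14.32, 14.12 and 14.14 under DMSO, 13.14, 12.69 and 12.65 under amiloride and 12.43, 11.78 and 12.26 under TG003. The groups did not overlap, with TG003 lowest and DMSO highest. CD27 fell by 1.37 ± 0.15 under amiloride, or 2.58-fold (adjusted p = 2.13e-06), and by 2.04 ± 0.15 under TG003, or 4.10-fold (adjusted p = 5.72e-07). Without the array that carries the other line's name in one label, the amiloride change was −1.28 (adjusted p = 2.41e-05). In JJN3 all 9 arrays read between 5.26 and 5.62, below the reference, with no call under either drug. CD27-AS1, the antisense gene beside it, was not called under either drug in KMS12-BM, with means of 6.34, 6.40 and 6.56 under DMSO, amiloride and TG003.

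CD28, the receptor of CD80 and CD86, showed the opposite pattern of lines. In JJN3 it read 6.73, 6.90 and 7.14 under DMSO, 6.90, 6.86 and 7.60 under amiloride and 5.55, 5.73 and 5.75 under TG003. The TG003 arrays lay below all others of that line, and amiloride overlapped DMSO. CD28 fell by 1.25 ± 0.15 on the log2 scale under TG003 (adjusted p = 8.66e-05), at least 1.04-fold against the reference because its TG003 mean lay below it. In KMS12-BM its values ran from 4.22 to 4.60, below the reference, with no call. The promoters of both genes held none of the motifs and are shown because CD27 fell in one line and CD28 in the other (CD27 at chr12:6443642-6443941 and CD28 at chr2:203706389-203706688, both plus strand).
CD27: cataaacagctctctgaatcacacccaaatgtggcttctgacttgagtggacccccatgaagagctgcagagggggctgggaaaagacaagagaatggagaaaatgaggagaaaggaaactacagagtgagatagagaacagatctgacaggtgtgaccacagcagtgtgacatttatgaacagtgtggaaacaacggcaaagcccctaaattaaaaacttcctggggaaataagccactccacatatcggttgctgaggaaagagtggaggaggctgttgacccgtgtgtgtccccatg
CD28: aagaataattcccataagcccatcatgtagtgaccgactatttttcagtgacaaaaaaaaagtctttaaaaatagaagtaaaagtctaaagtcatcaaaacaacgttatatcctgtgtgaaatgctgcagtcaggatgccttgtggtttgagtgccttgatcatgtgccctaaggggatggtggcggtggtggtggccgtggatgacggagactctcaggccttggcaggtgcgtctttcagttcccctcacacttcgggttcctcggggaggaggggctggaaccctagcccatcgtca

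**Figure D2:**
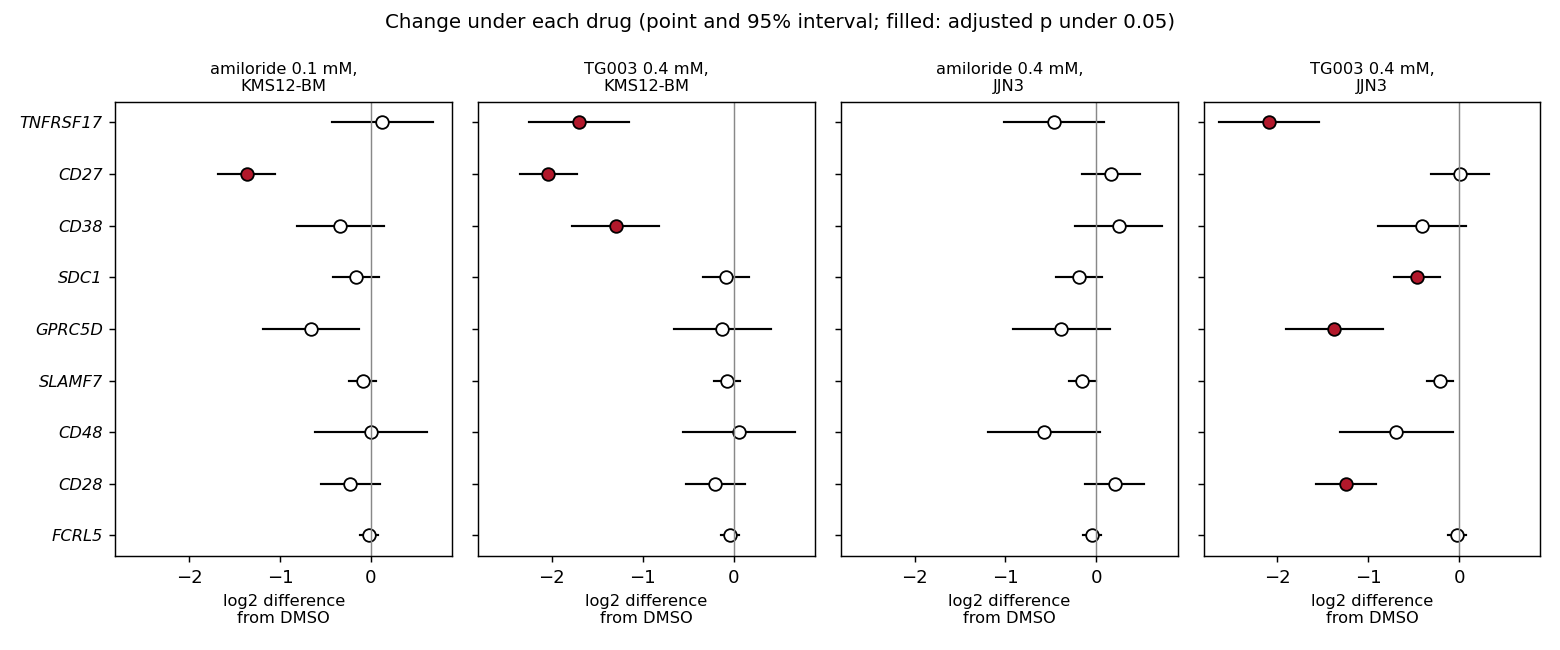
Log2 difference from DMSO (horizontal axes) of each gene (rows) under amiloride or TG003 in KMS12-BM and JJN3 (panels), with 95% intervals from limma and filled points for an adjusted p under 0.05. Filled points appear for CD27 under amiloride in KMS12-BM, for CD27, TNFRSF17 and CD38 under TG003 in KMS12-BM, and for TNFRSF17, GPRC5D, CD28 and SDC1 under TG003 in JJN3.

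Between the lines in DMSO, 8 of 9 genes were called, 5 higher and 3 lower in JJN3 than in KMS12-BM, where 41.2% of all genes were called. CD27 had a log2 difference of −8.77 ± 0.15, JJN3 minus KMS12-BM, and was at least 161-fold higher in KMS12-BM (adjusted p = 1.45e-16). CD38 differed by −5.51 ± 0.23, at least 25.6-fold (adjusted p = 6.17e-12). TNFRSF17 differed by −1.06 ± 0.26, or 2.08-fold (adjusted p = 0.00292), and its DMSO arrays did not overlap between the lines. JJN3 was higher for CD48 by 6.02 ± 0.29, at least 43.3-fold (adjusted p = 4.55e-11), and for SDC1 by 1.65 ± 0.12, at least 1.39-fold (adjusted p = 6.25e-09). It was also higher for CD28 by 2.37 ± 0.15 (adjusted p = 1.8e-09), at least 1.04-fold because KMS12-BM lay below the reference. GPRC5D was higher in JJN3 by 1.50 ± 0.25 (adjusted p = 9.34e-05), with both means below the reference and so no fold. SLAMF7, also below the reference in both lines, was higher in JJN3 by 0.23 ± 0.07 (adjusted p = 0.0112), but not called without the third DMSO array of KMS12-BM (0.0614) or of JJN3 (0.0554). FCRL5 differed by 0.04 ± 0.05 (adjusted p = 0.618).

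The response to TG003 was called different between the lines for 2 of 9 genes, against 4.57% of all genes. CD27 differed by 2.04 ± 0.21 (JJN3 minus KMS12-BM, adjusted p = 9.54e-05) and CD28 by −1.05 ± 0.22 (adjusted p = 0.0113). CD27 lay below the reference on all JJN3 arrays and CD28 on all KMS12-BM arrays, so each had a level above it in 1 line alone. A fall in the other line could hardly be measured, so a different response and a low starting level cannot be told apart. Of all calls 42.1% were higher, against 55.5% after further quantile normalization and 32.6% after each array was centred on its median. GPRC5D differed by −1.25 ± 0.35 (adjusted p = 0.0573) and was called without the second DMSO array of either line (0.033 without the KMS12-BM array and 0.0233 without the JJN3 array) or without the third JJN3 TG003 array (0.026). For amiloride 1 of 9 was called, against 18.5% of all genes: CD27, at 1.53 ± 0.21 (adjusted p = 9.3e-05). As the amiloride dose also differs between the lines, line and dose cannot be told apart there.

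Comparing the drugs directly, amiloride gave higher levels than TG003 for 3 of 9 genes in each line, against 15.8% of all genes in KMS12-BM and 10.5% in JJN3. Besides TNFRSF17, these were CD38 at 0.96 ± 0.23 (adjusted p = 0.00327) and CD27 at 0.67 ± 0.15 (adjusted p = 0.0022) in KMS12-BM, and CD28 at 1.44 ± 0.15 (adjusted p = 1.19e-05) and GPRC5D at 0.99 ± 0.25 (adjusted p = 0.0113) in JJN3. GPRC5D was not called there without the first JJN3 amiloride array (0.0622) or the first JJN3 TG003 array (0.0523). The doses in KMS12-BM differ, 0.1 mM of amiloride against 0.4 mM of TG003, while both were 0.4 mM in JJN3. In JJN3, 62.1% of all calls were higher under amiloride, against 61.5% after further quantile normalization and 78.6% after each array was centred on its median.

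**Figure D3:**
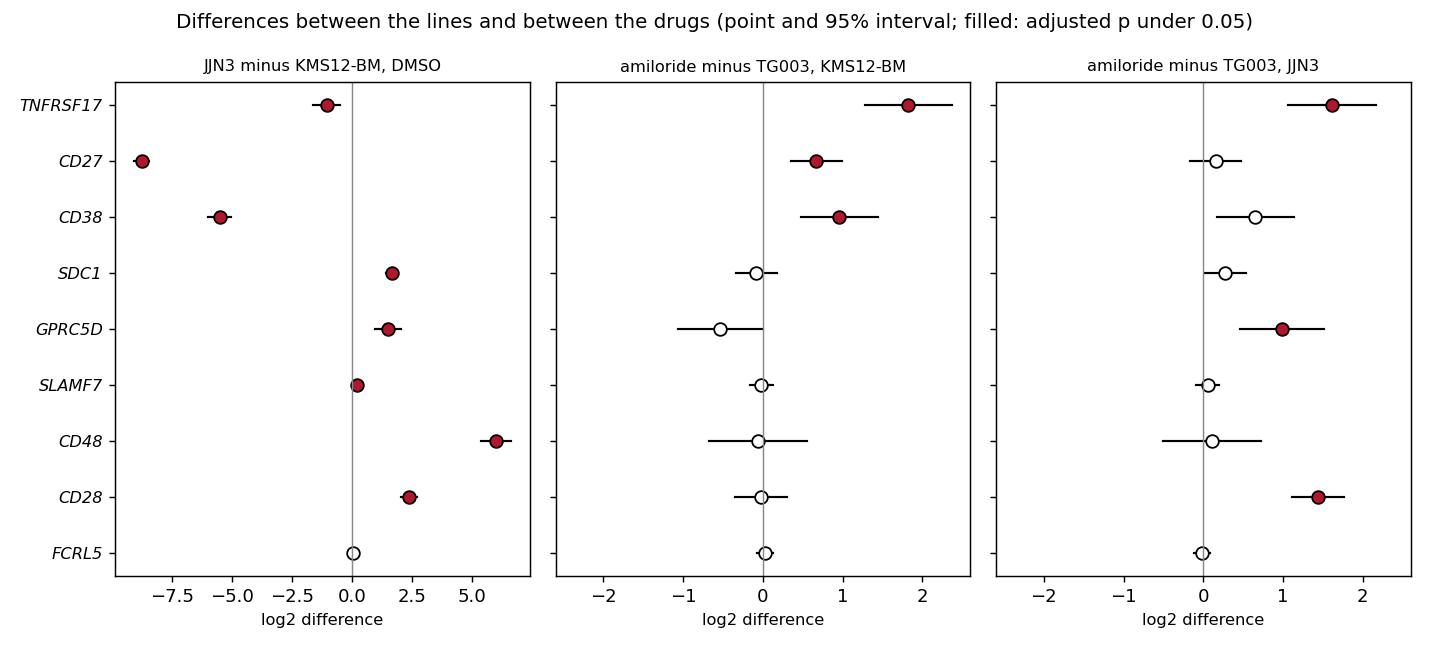
Log2 difference (horizontal axes, the first with a wider range) of each gene (rows) between the lines in DMSO and between the drugs in each line, with 95% intervals from limma and filled points for an adjusted p under 0.05. The line differences run from −8.77 for CD27 to 6.02 for CD48, and TNFRSF17 is higher under amiloride than under TG003 in both lines.

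Genes that work with the surface proteins were taken from lists, which were also chosen with earlier results of these data known. Their changes are given as log2 differences without folds or bounds, also where a group mean lay below the reference. Over all genes the median log2 difference was −0.02 under amiloride in each line, −0.01 under TG003 in KMS12-BM and 0.02 under TG003 in JJN3. The lists' counts stand beside these shares of all genes: 17% called higher and 13.6% lower under amiloride in KMS12-BM, 8.65% and 6.12% under amiloride in JJN3, 8.3% and 6.52% under TG003 in KMS12-BM, and 3.74% and 5.64% under TG003 in JJN3. Of 13 measured genes for the BCMA and TACI pathway, 5 rose and 2 fell under amiloride in KMS12-BM, 2 rose and 1 fell under TG003 there, none rose and 2 fell under amiloride in JJN3, and none rose and 4 fell under TG003 in JJN3. In KMS12-BM, the signalling adaptor TRAF6 rose by 1.40 ± 0.17 under amiloride (adjusted p = 7.07e-06), and TRAF3, an adaptor that restrains NF-kappaB signalling, fell by 0.79 ± 0.09 (adjusted p = 5.71e-06). The gamma-secretase subunit nicastrin (NCSTN) fell by 0.72 ± 0.12 under TG003 in JJN3 (adjusted p = 0.00139), and the subunit PSENEN rose by 0.54 ± 0.17 under TG003 in KMS12-BM (adjusted p = 0.0431). The ligand genes TNFSF13 (APRIL) and TNFSF13B (BAFF) were below the reference, at 4.27 and 4.56 under DMSO in KMS12-BM and at 4.16 and 4.72 in JJN3.

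Of 15 genes for NAD and adenosine metabolism around CD38, 1 rose and 7 fell under amiloride in KMS12-BM, and 2 rose and 6 fell in JJN3 (all genes called lower, 13.6% and 6.12%). NAMPT, the rate-limiting enzyme of NAD salvage, fell by 0.52 ± 0.08 under amiloride in JJN3 (adjusted p = 0.000539). NAPRT, which makes NAD from nicotinic acid, fell by 0.63 ± 0.12 in KMS12-BM (adjusted p = 0.000555) and by 0.51 ± 0.12 in JJN3 (adjusted p = 0.00865). Under TG003 the same list had 1 higher and 4 lower in KMS12-BM and none higher and 1 lower in JJN3. Of 19 syndecan and heparan sulfate genes, 3 rose and 1 fell under amiloride in KMS12-BM, none rose and 5 fell in JJN3, and TG003 gave 1 and 1 in KMS12-BM and 1 and 4 in JJN3. Among the JJN3 genes, the heparan sulfate endosulfatase SULF1 fell by 0.70 ± 0.09 under amiloride (adjusted p = 0.000107), and its relative SULF2 fell by 0.74 ± 0.14 under TG003 (adjusted p = 0.00224). SULF1 itself, with this value chosen after it was seen, rose by 0.36 ± 0.09 under TG003 (adjusted p = 0.0222).

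Of 13 SLAM family and adaptor genes, 1 rose and 1 fell under amiloride in KMS12-BM 1 fell under each drug in JJN3, and none was called under TG003 in KMS12-BM. PTPN11, the phosphatase SHP2, fell by 1.85 ± 0.11 under amiloride in KMS12-BM (adjusted p = 2.54e-09), and the lipid phosphatase INPP5D (SHIP1) fell by 0.84 ± 0.09 under TG003 in JJN3 (adjusted p = 3.61e-05). The 9 FCRL and GPRC5 relatives gave 2 calls in all, both lower under amiloride in KMS12-BM, FCRLA at −0.63 ± 0.08 (adjusted p = 1.08e-05) and GPRC5B at −0.20 ± 0.07 (adjusted p = 0.0326), and both lay below the reference. Of 10 CD27 and CD28 pathway genes, 1 rose and 2 fell under amiloride and 1 fell under TG003 in KMS12-BM, while in JJN3 2 rose under amiloride and 1 rose and 2 fell under TG003. VAV1, a signalling protein of lymphocytes, fell by 1.17 ± 0.12 under amiloride in KMS12-BM (adjusted p = 1.04e-06), by 0.88 ± 0.12 under TG003 there (adjusted p = 0.000117) and by 0.87 ± 0.12 under TG003 in JJN3 (adjusted p = 0.000206).

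Of 31 other surface genes of myeloma cells, 8 rose and 8 fell under amiloride in KMS12-BM, 3 rose and 5 fell under amiloride in JJN3, and 1 rose and 8 fell under TG003 in each line. Of all genes, 17% rose and 13.6% fell in the first of these contrasts and 8.65% and 6.12% in the second, and TG003 lowered 6.52% in KMS12-BM and 5.64% in JJN3. The adhesion molecule ICAM1 rose by 2.67 ± 0.28 under amiloride in KMS12-BM, from a mean of 9.63 to 12.30 (adjusted p = 1.52e-06), and by 0.89 ± 0.28 in JJN3 (adjusted p = 0.0458). In JJN3 it read 10.38, 10.48 and 10.77 under DMSO and 11.74, 11.78 and 10.79 under amiloride. The third amiloride array there was thus close to the highest DMSO array. In KMS12-BM, the integrin subunit ITGB7 fell by 1.63 ± 0.19 under amiloride (adjusted p = 3.55e-06) and by 1.80 ± 0.19 under TG003 (adjusted p = 1.11e-05). The chemokine receptor CCR10 fell by 1.78 ± 0.21 (adjusted p = 4.52e-06) and by 1.14 ± 0.21 (adjusted p = 0.00137) with the same drugs. In JJN3 under TG003, CCR1 fell by 1.87 ± 0.25 (adjusted p = 0.000148), the integrin subunit ITGA4 by 1.16 ± 0.15 (adjusted p = 0.000162) and the transferrin receptor TFRC by 1.14 ± 0.18 (adjusted p = 0.000615).

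Of 15 plasma cell marker genes, none rose, 9 fell and 6 were not called under TG003 in KMS12-BM (median −0.75), where 6.52% of all genes were called lower. In JJN3 1 rose, 7 fell and 7 were not called (median −0.42), where 5.64% of all genes were called lower. These shares are over all genes, most of which lay below the reference in every group, whereas most of these markers lay above it. Amiloride gave 3 higher and 4 lower in KMS12-BM (median 0.01) and 1 higher and 5 lower in JJN3 (median −0.39). In the JJN3 amiloride group the third array was the lowest for most of these markers. Examples are XBP1 (11.25, 11.31 and 10.45) and PIM2 (15.53, 15.38 and 14.69), while JCHAIN and IKZF3 were highest on it. The JJN3 median thus leans on that array, and its value without it is not given. POU2AF1, a B cell transcriptional coactivator, fell by 1.23 ± 0.19 under TG003 in KMS12-BM (adjusted p = 0.000417), and FKBP11, a secretory pathway isomerase, fell by 2.29 ± 0.12 under amiloride there (adjusted p = 1.14e-09). The 3 markers that rose under amiloride in KMS12-BM, named after their values were seen, were ELL2 by 0.88 ± 0.16 (adjusted p = 0.000396), XBP1 by 0.84 ± 0.19 (adjusted p = 0.00248) and IRF4 by 0.78 ± 0.15 (adjusted p = 6e-04). The markers' part in the surface gene results was not tested. The myeloid marker CD68 also fell in KMS12-BM, by 1.42 ± 0.17 under amiloride (adjusted p = 5.6e-06) and by 1.29 ± 0.17 under TG003 (adjusted p = 9.36e-05), while the other 9 myeloid markers lay below the reference in all groups. B cell markers gave 2 rises and 2 falls under amiloride in KMS12-BM and 1 fall under each drug in JJN3. Among them BACH2 rose by 1.70 ± 0.13 (adjusted p = 3.88e-08) and PAX5 by 0.52 ± 0.11 (adjusted p = 0.00133) under amiloride in KMS12-BM. CIITA, the activator of class II HLA genes, fell by 1.09 ± 0.13 under amiloride in KMS12-BM (adjusted p = 5.08e-06) and by 1.16 ± 0.13 in JJN3 (adjusted p = 2.32e-05). In KMS12-BM, BACH2 began below the reference, at a DMSO mean of 5.55. CIITA under amiloride (6.12) and CD68 under amiloride and TG003 (6.68 and 6.81) ended below it there. T and NK cell markers, all below the reference, gave 1 rise and 2 falls under amiloride and 1 fall under TG003 in KMS12-BM and no call in JJN3. Of 9 stromal and 23 tissue-restricted genes limma called 0 in each drug contrast, with 0 to 1 and 0 to 3 at an unadjusted p under 0.05.

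**Figure D4:**
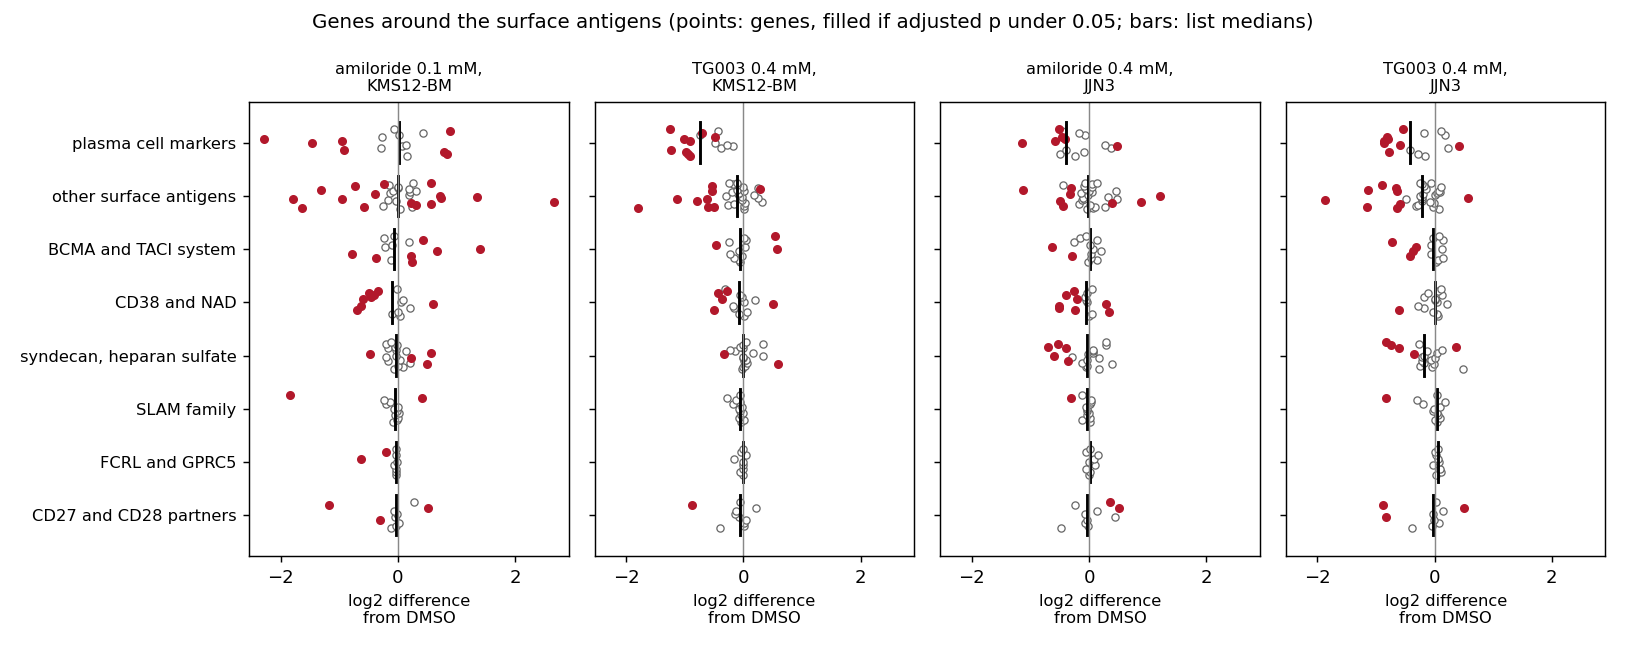
Log2 difference from DMSO (horizontal axes) of the genes of 8 lists (rows) under each drug in each line (panels), with a point per gene, filled for an adjusted p under 0.05, and a bar at the list median. The plasma cell marker medians are −0.75 and −0.42 under TG003 in KMS12-BM and JJN3.

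Over the 18 arrays, with each line's own mean removed, the genes most like TNFRSF17 were BUD23 (r = 0.945), KARS1 (0.921) and FBH1 (0.921) among 8534 genes above the reference, and the least like was SPECC1L (−0.939). For CD38 they were SEPTIN1 (0.877), ACACA (0.873) and PRPF8 (0.865), with KRCC1 least like (−0.904). For SDC1 they were DNMT3A (0.87), ST8SIA2 (0.842) and CRIM1 (0.833). The arrays share drug groups, and these values carry no test. Whether arrays also share a culture is not given.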

How the data were processed

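RNA of 18 samples was measured on whole-transcriptome arrays. The deposited values are log2 intensities that the authors made with RMA, per the submitters' processing notes. The RMA version and genome build are not given in the sources used here. By the labels the RNA was total, and by the series text it was poly A+. Of 70523 probe sets, 25324 are annotated, 23781 with 1 symbol and 1543 with several, which stayed unnamed, and 45199 are not listed. For 479 genes with several probe sets the brightest was used, which gave 22465 genes. Groups followed the sample titles. Whether the 3 arrays per group came from separate cultures is not stated in the labels, so the p-values measure only the spread between these arrays, which may be technical. Their number limits the precision.

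With limma 3.58.1 in R 4.3.3, 6 group means were fitted with 12 residual degrees of freedom. There were 9 contrasts, tested on both sides and adjusted by Benjamini-Hochberg over all genes at 0.05. Tables and figures were made with Python 3.11.15, numpy 2.4.6, pandas 2.3.3 and matplotlib 3.10.9, and the fit was tested on simulated data. The 10 genes and 13 lists were chosen with earlier results of these data known. The 10 genes were named throughout. Of each list, up to 3 called genes with the largest change per drug contrast could be named, or else the gene with the smallest p. The ligand genes and those so described were added after their values were seen. Of the lists, B cell, T and NK cell, myeloid, stromal and tissue-restricted markers served as checks. Alternatives were a replicate block, quantile normalization, median centring, leaving out dim genes, averaging probe sets, all probe sets, fitting the compared groups alone, a trended robust fit, and each array left out.

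Replicate numbers follow serial codes in the titles, which are the source of any pairing. In 4 of 15 pairs of groups, same-numbered arrays deviated together with r over 0.1 for every number. Among them were DMSO with TG003 in KMS12-BM (0.16, 0.423 and 0.362) and in JJN3 (0.239, 0.471 and 0.427), and the lines in DMSO (0.16, 0.244 and 0.284).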

Additional observations from a re-analysis of the deposited data

Results flagged for a closer look

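The response to a drug was called different between the lines, by the interaction test in limma, for CD27 and CD28. For CD27 the difference, JJN3 minus KMS12-BM, was 1.53 under amiloride (adjusted p = 9.3e-05) and 2.04 under TG003 (adjusted p = 9.54e-05), with CD27 below the background reference on all JJN3 arrays. For CD28 the difference was −1.05 under TG003 (adjusted p = 0.0113), with CD28 below the reference on all KMS12-BM arrays. A fall from such low levels could hardly be measured, so a different response and a low starting level cannot be told apart.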

How the results depend on the processing

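Of the alternatives tried for the 9 genes' differences, 1192 kept direction and side of the threshold, 16 became called, 7 lost their call and 0 reversed. The lost calls were of SDC1, SLAMF7 and GPRC5D, given with their results. Testing all probe sets gave 12475 calls against 6865 for amiloride and 5658 against 3330 for TG003 in KMS12-BM, 17087 against 9258 between the lines and 11749 against 6686 between the drugs in KMS12-BM, where more features were tested. Fitting only the compared groups gave 2 called surface genes, GPRC5D added, against 1 for amiloride in KMS12-BM. With single arrays left out, this count ran from 1 to 2, that of the amiloride difference between the lines from 1 to 2 and that of the TG003 difference from 2 to 4, while the genes called for the TG003 difference ran from 677 to 992 against 1026. The highest of these counts of surface genes came without the second KMS12-BM DMSO array, where CD38 was added in each (the amiloride difference at 0.88, adjusted p = 0.0256) and GPRC5D in the last. The first count was also 2 without the third KMS12-BM DMSO array, with GPRC5D added, and 677 came without the second JJN3 DMSO array and 679 without the first KMS12-BM DMSO array. The cause was not tested. With the replicate block, the surface genes called stayed at 3 for TG003 in KMS12-BM, 4 in JJN3 and 8 between the lines, no call of the 9 genes changed, and the genes called for TG003 in KMS12-BM numbered 3759. CD38 between the drugs in JJN3 (0.65, adjusted p = 0.0615) and GPRC5D in KMS12-BM were called under some alternatives, with both groups below the reference. Genes near the reference have the least measurable range.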

Other observations

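Some genes of the lists, chosen after their values were seen, differed widely between the lines in DMSO. The syndecans SDC2 and SDC4 averaged 10.60 and 7.73 in JJN3 against 5.17 and 4.48 in KMS12-BM, differences of 5.44 ± 0.16 (adjusted p = 1.11e-13) and 3.25 ± 0.15 (adjusted p = 3.48e-11), with the KMS12-BM means below the background reference. CD70, the ligand of CD27, averaged 11.89 in JJN3 and 10.77 in KMS12-BM, a difference of 1.12 ± 0.20 (adjusted p = 0.000173), so it was above the reference in both lines while CD27 was so in KMS12-BM. IKZF1, the lymphoid transcription factor degraded under lenalidomide, averaged 9.28 in JJN3 and 12.55 in KMS12-BM, a difference of −3.26 ± 0.14 (adjusted p = 1.12e-11).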
